A study of Mus musculus with 4 samples.

Results

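The fetal blood program studied here comprised 10 of the 27179 genes in the deposited expression table: the RNA-binding proteins Lin28a and Lin28b, the chromatin proteins Hmga1 and Hmga2, the mRNA-binding proteins Igf2bp1, Igf2bp2 and Igf2bp3, the transcription factors Arid3a and Sox17, and the long noncoding RNA H19. They were chosen by name as genes known from fetal tissues and fetal blood formation, because the leukemias were started from fetal liver cells, and each was found in the table by its NCBI gene number. The rule itself used no measured value, but the choice was made with earlier results of these data known. The cells were leukemia-initiating cells (LICs), sorted as Mac-1+/c-Kit+ cells from the bone marrow of mice with acute myeloid leukemia. The paper says that LICs were sequenced and describes the sort for its RT-PCR, but its sequencing methods name tissue as the source of the RNA. In both groups the leukemia came from Lin- fetal liver cells that carried the fusion oncogene MLL-AF9 on a retrovirus with a YFP marker, transplanted into lethally irradiated C57BL/6 recipients. The donor cells were wild type in 2 libraries (WT) and lacked the checkpoint ligand CD274 (PD-L1) in the other 2 (CD274-null), and all samples carry the C57BL/6 strain and an age of 6 weeks. How many mice went into a library and which round of transplantation it came from are not given in the sources used here. The sources do not say that the 2 libraries of a group came from separate mice either, so each p-value measures only the spread between these samples.

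In early development, LIN28 proteins bind the precursors of the let-7 microRNAs and block their maturation. Mature let-7 in turn represses mRNAs that carry a match to its seed, among them those of HMGA2, the IGF2BP family, LIN28B and ARID3A. Lin28b, Hmga2, Igf2bp2 and Igf2bp3 are known from fetal blood stem cells, SOX17 is required for those cells and is also made by endothelium, and H19 is an imprinted RNA that is abundant in fetal liver and hosts a microRNA, miR-675.

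The let-7 seed is what ties most of these genes together, so the mature sequences of 4 of its family are shown first, from RefSeq on GRCm38.p6 and written 5′ to 3′, with the seed (bases 2 to 8) in capitals. let-7a-5p lies at chr13:48538239-48538260 on the minus strand, let-7b-5p at chr15:85707325-85707346 on the plus strand, let-7g-5p at chr9:106178846-106178867 on the plus strand and miR-98-5p at chrX:151913229-151913250 on the plus strand.
let-7a-5p: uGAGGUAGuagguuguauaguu
let-7b-5p: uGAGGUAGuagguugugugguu
let-7g-5p: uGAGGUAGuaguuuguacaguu
miR-98-5p: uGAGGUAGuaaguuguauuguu
All 4 share the seed GAGGUAG and differ from one another only in the bases after it.

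LIN28 proteins recognise a GGAG motif in the terminal loop of most let-7 precursors. A pair of hairpins is shown because their genes had the highest let-7 precursor values in these libraries: Mirlet7a-2 (chr9:41536716-41536811, plus strand) holds the motif, here in capitals, and Mirlet7b (chr15:85707319-85707403, plus strand) does not.
Mirlet7a-2: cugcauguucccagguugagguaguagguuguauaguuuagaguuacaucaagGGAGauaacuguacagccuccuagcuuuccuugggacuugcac
Mirlet7b: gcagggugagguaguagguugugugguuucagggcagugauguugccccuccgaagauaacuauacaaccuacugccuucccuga
The letters GGAG, read on the hairpin's own strand only, occur in 9 of the 12 let-7 and miR-98 hairpins of RefSeq and in 447 of all 1005 hairpins (44.5%), so a match by itself is common.

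Of the 9 protein-coding members, only Sox17 had no copy of CTACCTC, the reverse complement of the let-7 seed, in the 3′ UTR of the transcript examined (GENCODE M21, GRCm38, read on the transcript strand only). The first match after the stop codon of each other gene is printed with the bases before it, the match in capitals. All lie in 3′ UTR exons: Lin28a at chr4:134005189-134005210 (minus strand), Lin28b at chr10:45381022-45381043 (minus), Hmga2 at chr10:120364224-120364245 (minus), Hmga1 at chr17:27563278-27563299 (plus), Igf2bp1 at chr11:95961778-95961799 (minus), Igf2bp2 at chr16:22059473-22059494 (minus), Igf2bp3 at chr6:49086787-49086808 (minus) and Arid3a at chr10:79953896-79953917 (plus).
Lin28a: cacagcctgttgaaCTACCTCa
Lin28b: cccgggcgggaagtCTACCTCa
Hmga2: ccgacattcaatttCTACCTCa
Hmga1: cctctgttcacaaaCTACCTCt
Igf2bp1: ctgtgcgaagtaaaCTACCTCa
Igf2bp2: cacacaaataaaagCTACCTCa
Igf2bp3: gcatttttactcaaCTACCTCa
Arid3a: aggcaagtttctttCTACCTCa
Lin28b, Hmga2 and Igf2bp1 held 4 matches each, Lin28a and Arid3a held 2, and Hmga1, Igf2bp2 and Igf2bp3 held 1. Among all genes with a 3′ UTR, 1905 of 20205 (9.4%) had a match. Long 3′ UTRs hold more of them by length alone: of 3′ UTRs within 20% of the length of Lin28b's 4445 bases, 24.8% had a match and 0.22% had at least 4. For the 3014 bases of Hmga2 those shares were 16.2% and 0.13%, and for the 6337 bases of Igf2bp1 32.8% and 0.35%. For the 1178 bases of Hmga1, with its single match, the share with a match was 8.0%. A match of letters is a description of the sequence and not a measured site of repression.

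**Figure D1:**
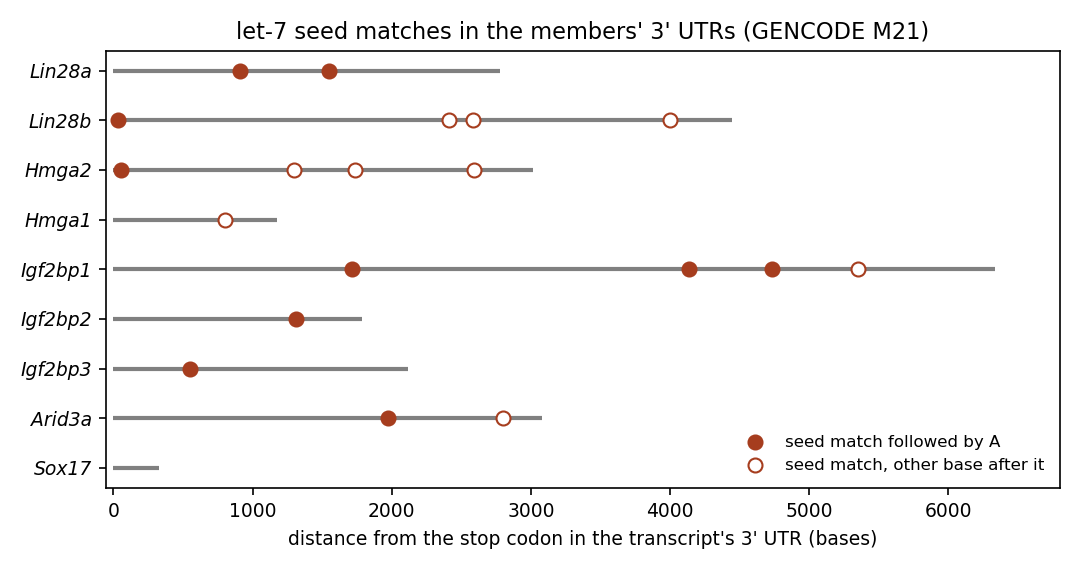
Positions of the let-7 seed match in the 3′ UTR of the 9 protein-coding members, as distance in bases from the stop codon; grey lines show the 3′ UTR to scale, and circles are filled where the match is followed by an A. Lin28b and Hmga2 have their first match 36 and 58 bases after the stop codon, and Sox17 has none in its 326 bases.

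Expression was measured as FPKM, in which read fragments are divided by the length of the gene and the mapped reads of the library, so that levels can be compared between genes. Within a gene the 4 values stood in ratios of whole numbers, which gave the reads behind them up to a common factor. On this scale the libraries labelled WT held 11347307 and 9917678 reads on genes and those labelled CD274-null 8623045 and 9691656, and 16344 to 17038 genes were above 0. The deleted gene did not separate the labels. Cd274 (chr19:29362107-29388095) stood at 2.80 and 0.945 FPKM under the WT label and at 1.43 and 2.29 FPKM under the CD274-null label. Directions are therefore given as the labels state them. The LIC markers were present: all 10 listed genes were above 0 in all 4 libraries, with Itgam, which encodes the Mac-1 alpha chain, at an FPKM of 100.2 to 174 and Kit at 6.59 to 19.5.

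Of the 10 genes, 8 were read in at least 1 library and 6 in all 4, whereas Igf2bp1 and Sox17 were listed at 0 throughout. By mean FPKM over the 4 libraries the order was Hmga1 (64.6), Arid3a (46.6), Igf2bp3 (34.4), Lin28a (14.8), Lin28b (2.08), Hmga2 (1.47), Igf2bp2 (0.607) and H19 (0.0491). Most steps of this order separated the genes in every library. The ranges of Arid3a and Igf2bp3 overlapped, although Arid3a was the higher of the pair within each of the 4 libraries. The place of Lin28b above Hmga2 held in 1 library only, CD274-null replicate 2.

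**Figure D2:**
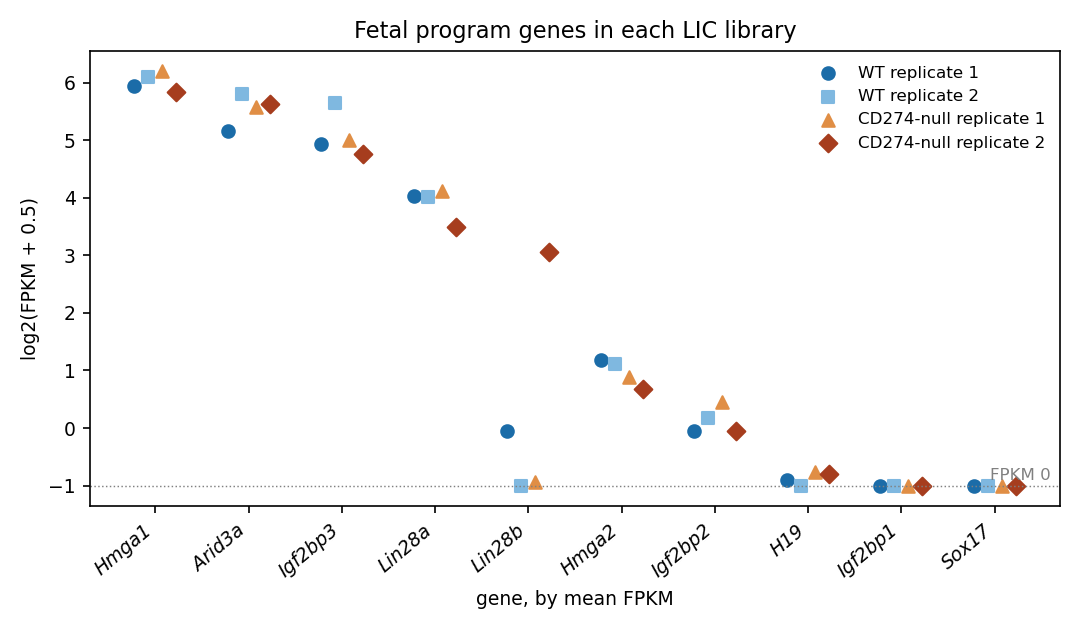
log2(FPKM + 0.5) of each gene in each of the 4 LIC libraries, with genes ordered by mean FPKM and 1 point per library; the dotted line is an FPKM of 0. Hmga1, Arid3a, Igf2bp3 and Lin28a sit at 10.8 FPKM or more in every library, and Lin28b reaches 7.83 in CD274-null replicate 2 while lying under 0.5 in the other libraries.

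To ask whether the program differed with CD274 genotype, limma compared log2(FPKM + 0.5) of both groups over 13230 genes, those whose mean FPKM reached 0.5, on a scale that understates the changes of low genes. Of the 10 genes, 7 entered this test. Candidates were genes whose unadjusted p lay under 0.01 and whose fold change exceeded 1.5. They made up 3.63% of all tested genes, 2.39% higher and 1.24% lower in the libraries labelled CD274-null. Of the 7 genes, 0 were candidates and 0 had an unadjusted p under 0.05 from limma, against 1818 of all tested genes. Their adjusted p ran from 0.560 to 0.998 (limma, Benjamini-Hochberg). By sign, 3 log2 fold changes were positive and 4 negative, and the median was -0.0012 beside 0.01 over all tested genes. In 1 of the 7, Hmga2, the groups did not overlap, beside 47.3% of all tested genes. A p that misses the threshold does not show equal levels, and the standard errors of 0.22 to 1.23 on the log2 scale give the precision that 2 libraries a group allow. In bulk RNA, fewer cells that express a gene and less of its RNA per cell cannot be told apart.

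**Figure D3:**
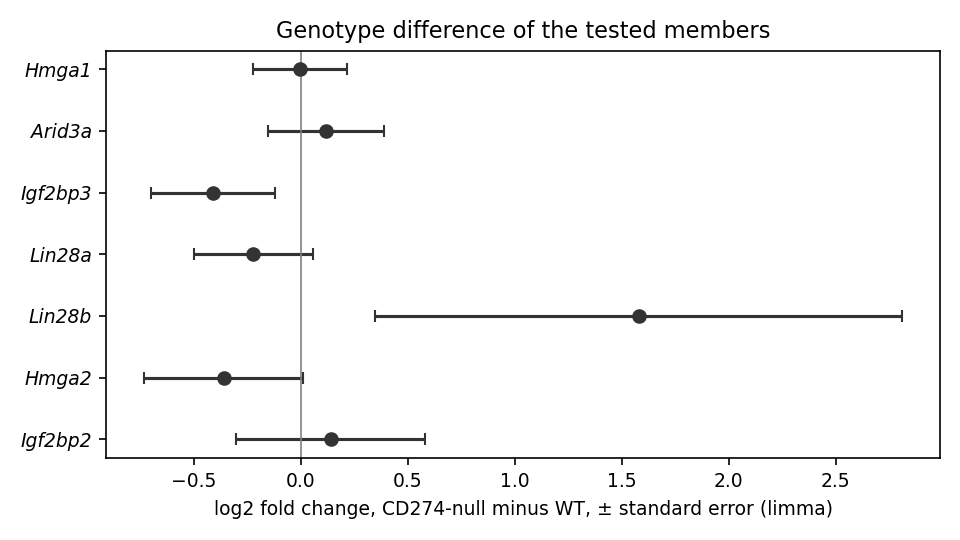
log2 fold change, CD274-null minus WT on the log2(FPKM + 0.5) scale, of the 7 tested genes; points are limma estimates and bars are 1 standard error either side. Hmga1 lies at -0.0012, and Lin28b has by far the longest bar, with a standard error of 1.23.

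The let-7 antagonists come first. Lin28a (NCBI gene 83557, chr4:134003330-134019196), the LIN28 protein that works mainly in the cytoplasm, stood at 15.9 and 15.7 FPKM under the WT label and at 16.8 and 10.8 FPKM under the CD274-null label, from 641, 557, 518 and 374 reads. CD274-null replicate 2 was the low library and the other 3 lay close together, so the groups overlapped. The log2 difference between the genotypes was -0.22 (SE 0.28, adjusted p = 0.758, limma with Benjamini-Hochberg). Without CD274-null replicate 2 it was 0.087.

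Lin28b (NCBI gene 380669, chr10:45376617-45486314), the second LIN28 protein and the one known for imposing fetal traits on adult blood stem cells, was the gene of the program that varied most. It stood at 0.464 and 0 FPKM under the WT label and at 0.0209 and 7.83 FPKM under the CD274-null label, from 29, 0, 1 and 421 reads. A single library, CD274-null replicate 2, held nearly all of its reads, and the other CD274-null library lay between the WT values. Lin28b also passed the filter on low values only through that library. The 0 in WT replicate 2 allows an FPKM of up to 0.0545 (3 reads), a limit that covers counting error only.

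Read against the other genes of the same library, Lin28b stood above 54.3% of the genes above 0 in CD274-null replicate 2, above 22.8% in WT replicate 1 and above just 0.679% in CD274-null replicate 1. It supplied 42.0% of the summed LIN28 FPKM in CD274-null replicate 2. In the other libraries Lin28a supplied 97.2% or more of that sum. The group comparison gave a log2 difference of 1.58 (SE 1.23, adjusted p = 0.590, limma with Benjamini-Hochberg), which became 2.96 with voom on the recovered reads, without a call. It rested on which CD274-null library was used: without replicate 2 the value was -0.41, and without replicate 1 it was 3.58 and met the candidate thresholds in limma, where the lone library was assumed to vary like the other group. The 2 libraries labelled CD274-null thus differed from each other by more than the groups did.

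No other annotated gene overlapped the exons of Lin28b, and 0% of its 50-base stretches occurred in another gene. The genes around it were examined next. Prep, a peptidase gene on one side of Lin28b, stood at 40.1 and 24.7 FPKM under the WT label and at 29.2 and 23.5 FPKM under the CD274-null label. Hace1, a ubiquitin ligase gene on the other side, had 6.21, 4.93, 4.06 and 5.36 in the same order. In CD274-null replicate 2, Prep was at its lowest and Hace1 lay within the range of the other libraries. The nearest gene, Bves, followed the pattern of Lin28b at a lower level, at 0.0538, 0, 0 and 0.812. Prdm1, farther away, was at 0.185, 0.0382, 0.396 and 0.449, also highest in that library, and Popdc3 was at 0 throughout.

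**Figure D4:**
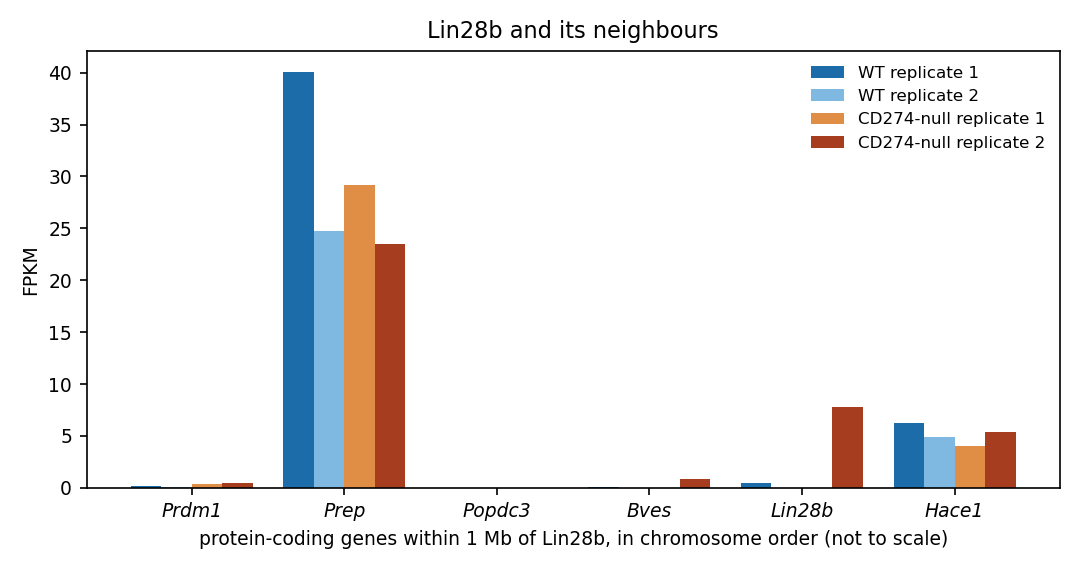
FPKM of Lin28b and of the 5 other protein-coding genes within 1 Mb of it, in chromosome order and not to scale, with 1 bar per library. The tall Lin28b bar of CD274-null replicate 2 (7.83 FPKM) has no counterpart at Prep or Hace1, which were read in all 4 libraries, while Bves, at 0.812 FPKM, and Prdm1, at 0.449, are also highest there.

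Genes that were this uneven were few. At an FPKM of at least 5 in 1 library and under 0.5 in the other 3, limits chosen after the values were seen, there were 4 genes in CD274-null replicate 2, and Lin28b ranked second of them. WT replicate 1 had 11 such genes, WT replicate 2 had 3 and CD274-null replicate 1 had 9, so every library had some. Markers of other cells were examined in the same library. Of 7 B cell markers, 0 were at 0 in CD274-null replicate 2 against 5, 4 and 3 in WT replicates 1 and 2 and CD274-null replicate 1, with Pax5 at 0.416. The summed FPKM of the B cell list was 12.8 and 36.6 under the WT label and 36.3 and 39.9 under the CD274-null label, most of it Cd79b. The summed endothelial list was also highest there, at 59.6 against 14.6 to 25.5, through Pecam1 and Eng. Tie1 (0.129) and Esam (0.108) were also highest there, Cdh5 was at 0.0252, Emcn, Kdr and Tek were at 0, and Vwf was at its lowest, at 0.285 against 0.385 to 1.19. The summed plasma cell list was 186 and 75.8 under the WT label and 361 and 308 under the CD274-null label. Within it, Igkc was at 8.64 and 7.98 against 214 and 189 and Jchain at 0.370 and 0.514 against 12.3 and 10.5, while Xbp1 was at 177 and 66.8 against 133 and 106. The part of other cells in the Lin28b value was not tested.

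Among the chromatin proteins that bend AT-rich DNA, Hmga2 (NCBI gene 15364, chr10:120361268-120476469), a let-7 target known for promoting self-renewal of fetal stem cells, was read at a low level. It stood at 1.76 and 1.67 FPKM under the WT label and at 1.35 and 1.11 FPKM under the CD274-null label, from 85, 71, 50 and 46 reads. Both CD274-null values lay below both WT values, which also held for 21.8% of all tested genes. The means were 1.71 ± 0.0634 (SD, n = 2) and 1.23 ± 0.175 (SD, n = 2), and the log2 difference between the genotypes was -0.36 (SE 0.37, adjusted p = 0.686, limma with Benjamini-Hochberg). It stayed between -0.48 and -0.26 in every setting tried. CD274-null replicate 2, the library with the highest Lin28b, had the lowest Hmga2, and a link between these values was not tested.

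Hmga1 (NCBI gene 15361, chr17:27556574-27563672), the related protein that dividing cells carry in bulk, was the most abundant gene of the program. It stood at 60.7 and 68.2 FPKM under the WT label and at 72.7 and 56.8 FPKM under the CD274-null label. The CD274-null libraries held both the highest and the lowest value, and the log2 difference between the genotypes was -0.0012 (SE 0.22, adjusted p = 0.998, limma with Benjamini-Hochberg). A correction for GC content moved it to -0.28, without a call. Hmga1 made up 97.2% to 98.2% of the summed HMGA FPKM and Hmga2 the rest. The level of Hmga1 is uncertain because 69.1% of its 50-base stretches also occur elsewhere, mostly in the near-identical gene Hmga1b (chr11:120762794-120764392), which was listed at 66.7, 76.2, 71.6 and 50.9. Reads could have been split between both. Hmga1b differed by -0.24 on the log2 scale (adjusted p = 0.688, limma with Benjamini-Hochberg) and was, like Hmga1, lowest in CD274-null replicate 2.

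The IGF2BP proteins bind and stabilise mRNAs, and here the family was almost wholly Igf2bp3. Igf2bp3 (NCBI gene 140488, chr6:49085218-49215469), an oncofetal member known to support MLL-rearranged leukemia, stood at 30.0 and 49.5 FPKM under the WT label and at 31.6 and 26.6 FPKM under the CD274-null label, from 1511, 2193, 1213 and 1153 reads. WT replicate 2 was the high library, and the groups overlapped because the other WT library lay below CD274-null replicate 1. The means were 39.8 ± 13.8 (SD, n = 2) and 29.1 ± 3.48 (SD, n = 2). The log2 difference was -0.41 (SE 0.29, adjusted p = 0.560, limma with Benjamini-Hochberg). Without WT replicate 2 the difference was -0.051, and without WT replicate 1 it was -0.76, not a candidate in either case. The mRNA shares 34.5% of its 50-base stretches with Malsu1, a gene of the other strand that overlaps 1529 of its exonic bases. The library kit does not mark strand, so reads of the shared stretch cannot be told apart. Malsu1 was lower, at 11.7, 12.3, 11.1 and 8.19.

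Igf2bp2 (NCBI gene 319765, chr16:22059009-22163299), the family member that persists in adult tissues, was low at 0.466 and 0.630 under the WT label and 0.870 and 0.464 under the CD274-null label, from 21, 25, 30 and 18 reads. CD274-null replicate 2 lay just under WT replicate 1 and CD274-null replicate 1 above both WT libraries, so the groups overlapped, and the log2 difference between the genotypes was 0.14 (SE 0.44, adjusted p = 0.916, limma with Benjamini-Hochberg). Igf2bp1 (NCBI gene 140486, chr11:95957163-96005944), the embryonic member and the one with 4 let-7 seed matches, was listed at 0 in all 4 libraries. A count of 0 allows it an FPKM of 0.0319 to 0.0417 at these depths. Of the summed IGF2BP FPKM, Igf2bp3 supplied 97.3% to 98.7% and Igf2bp2 1.26% to 2.68%.

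Of the transcription factors, 1 was abundant and the other was not read. Arid3a (NCBI gene 13496, chr10:79927043-79955018), a DNA-binding protein of B cell and fetal blood development, stood at 35.3 and 55.2 FPKM under the WT label and at 47.0 and 49.1 FPKM under the CD274-null label, from 2172, 2994, 2213 and 2603 reads. Both CD274-null values lay between the WT values. The log2 difference between the genotypes was 0.12 (SE 0.27, adjusted p = 0.874, limma with Benjamini-Hochberg), and it turned to -0.026 with a correction for GC content. Cd79b, the most abundant gene of the B cell list, was also lowest in WT replicate 1, at 12.8, 36.2, 35.6 and 37.4. Of all tested genes, 32.0% had their lowest value in that library. Cd79a, of the same list, was low throughout, at 0.0651, 0.296, 0.596 and 0.757. Ms4a1 and Ebf1 were at 0 in every library except CD274-null replicate 2. The part of B cells in the Arid3a values was not tested. Sox17 (NCBI gene 20671, chr1:4490928-4497426) was listed at 0 in all 4 libraries, which allows an FPKM of 0.0824 to 0.108.

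H19 (NCBI gene 14955, chr7:142575530-142578146) was at the limit of detection. It stood at 0.0331 and 0 FPKM under the WT label and at 0.0865 and 0.0768 FPKM under the CD274-null label, from 1, 0, 2 and 2 reads. The groups did not overlap, with the CD274-null values the higher; of all genes above 0 in a library, 41.5% had groups that did not overlap in one direction or the other. All 4 values lay under the FPKM of 0.0992 to 0.130 that 3 reads would give, and no difference was detectable at this depth. The gene was not tested. The hosted microRNA gene Mir675 was listed at 0 throughout, and Igf2, the imprinted growth factor gene beside H19, was at 0.0816, 0.0927, 0.0534 and 0.237.

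One library was low for most of the program. Of the 6 tested genes other than Lin28b, 5 had their lowest value in CD274-null replicate 2 (83.3%), the library with the highest Lin28b, whereas 35.3% of all tested genes did. With Lin28b counted the share was 71.4%. For Igf2bp2 the lowest value, 0.464, was close to the 0.466 of WT replicate 1. Arid3a was the exception, lowest in WT replicate 1. Lin28b was left out of this count after its values were seen, and the count describes these libraries without a test. For the 4 members whose mean FPKM reached 5, the genes with the most similar library pattern were sought by the largest deviation over the 4 libraries, each gene centred on its own mean of log2(FPKM + 0.5). Lin28a was matched most closely by Gm5148, Aar2 and Fam8a1 (0.022 to 0.029), Hmga1 by Zfp942, Rpl10a and Ndufb2 (0.024 to 0.027), Igf2bp3 by Asah1, Tstd3 and Ankrd44 (0.040 to 0.055) and Arid3a by Atxn7l1, Tspan17 and Snapc3 (0.029 to 0.033). With only 4 libraries such patterns are common. Within a deviation of 0.1 there were 73 genes for Lin28a, 244 for Hmga1, 38 for Igf2bp3 and 65 for Arid3a, and no member of the program was among the closest 3 of another.

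The let-7 precursors themselves were read as genes in the same table. Mirlet7a-2, whose hairpin with the GGAG motif is printed above, had an FPKM of 36.9 in WT replicate 1 and of 0 in the other 3 libraries. Mirlet7b, without the motif, also peaked in WT replicate 1, at 19.3, with 3.54 left for CD274-null replicate 2 and 0 for both remaining libraries. Of the 12 let-7 and miR-98 genes, 8 and 2 were above 0 under the WT label and 0 and 4 under the CD274-null label. The summed let-7 FPKM was therefore 65.5 in WT replicate 1 against 1.86, 0 and 8.72. Over all 643 microRNA genes the summed FPKM did not stand out in that library, at 3361 against 3084 to 3427, but the number of them above 0 was highest there, at 162 against 127, 132 and 142. These genes are short, so 1 read is worth nearly 1 FPKM, and a library made from long RNA reads fragments of host or precursor transcripts, not the mature microRNA. Mature let-7 was not measured, and both hairpins with the highest values came from 1 WT library, so they give no difference between genotypes.

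Most genes for proteins that make or use let-7 were read in all libraries. Of 21 genes for processing, loading and decay of let-7, 19 were tested, 0 were candidates with a higher value in the CD274-null libraries and 1 with a lower one, and the median log2 fold change was 0.13. Of all tested genes, 2.39% were candidates with a higher and 1.24% with a lower value. Ago2, the Argonaute that cuts and silences microRNA targets, stood at 15.3 and 13.2 FPKM under the WT label and at 7.63 and 6.04 FPKM under the CD274-null label. The groups were well apart, with a log2 difference of -1.01 (SE 0.27, adjusted p = 0.274, limma with Benjamini-Hochberg), but the call was lost when any 1 library was left out, with differences of -1.17 to -0.85. Ddx5, an RNA helicase of the Drosha complex and the most abundant gene of the list, had 311, 249, 282 and 366. Dicer1, which cuts the let-7 hairpin, was even across libraries at 13.0, 11.8, 13.4 and 11.7. Trim71, an embryonic let-7 target that also acts on Argonaute, was listed at 0 throughout. Tut7, an enzyme that adds uridine to let-7 precursors bound by LIN28, reached 36.7. Its relative Tut4 was low, at 0.0999 and 0.114 against 0.467 and 0.547 (7, 7, 25 and 33 reads), and was not tested. The Tut4 groups did not overlap, which held in either direction for 41.5% of all genes above 0 in a library. Dis3l2, the nuclease that degrades those tailed precursors, was read at 7.28 to 14.6. Tut7 and Dis3l2 also had groups that did not overlap, but with the CD274-null values the lower. Among the 19 tested genes of the list, groups did not overlap in 5 with higher and 5 with lower CD274-null values.

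Among 32 genes known or proposed as let-7 targets outside the program, 25 were tested, of which 0 were candidates with a higher and 3 with a lower value in the CD274-null libraries. Over all tested genes those shares were 2.39% and 1.24%. The median log2 fold change was -0.16 and 16 of the 25 were negative. Cdk6, the kinase partner of D cyclins, stood at 102 and 112 FPKM under the WT label and at 47.5 and 38.9 FPKM under the CD274-null label (log2 difference -1.31, SE 0.21, adjusted p = 0.172, limma with Benjamini-Hochberg). Ccnd2, which encodes Cyclin D2, had 4.78 and 4.82 against 1.45 and 0.661 (log2 difference -1.82, SE 0.39, adjusted p = 0.251, limma with Benjamini-Hochberg). Ccnd1, which encodes Cyclin D1, had 3.85 and 7.79 against 1.76 and 0.847 (log2 difference -1.78, SE 0.47, adjusted p = 0.274, limma with Benjamini-Hochberg). In all 3 the CD274-null libraries lay below the WT libraries, which also held for 21.8% of all tested genes. CD274-null replicate 2 was lowest in each. None passed an adjusted p of 0.05, which 0.0756% of all tested genes did. Leaving out CD274-null replicate 2 ended all 3 calls, with differences of -1.16 for Cdk6, -1.44 for Ccnd2 and -1.41 for Ccnd1. Without WT replicate 2 only Cdk6 kept its call, while Ccnd2 was at -1.81 and Ccnd1 at -1.32. Ccnd1 also lost its call without CD274-null replicate 1, at -2.16, and Ccnd2 without WT replicate 1, at -1.82. Other-cell markers also differed with the labels: the summed macrophage list was 147 and 142 against 89.8 and 106, through Vcam1 (117 and 92.3 against 53.7 and 59.8), whereas Adgre1 overlapped (22.2 and 47.1 against 28.4 and 42.6) and Axl was higher under the CD274-null label, and Igkc and Jchain were higher under the CD274-null label, as given above. Their part in these differences was not tested. Eif4g2, a translation factor and the most abundant gene of the list, had 248 and 242 against 209 and 189. Myc lay the other way, at 92.7 and 67.1 against 94.7 and 114, without passing the test. In CD274-null replicate 2, 13 of the 25 had their lowest value (52.0%), beside 35.3% of all tested genes.

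**Figure D5:**
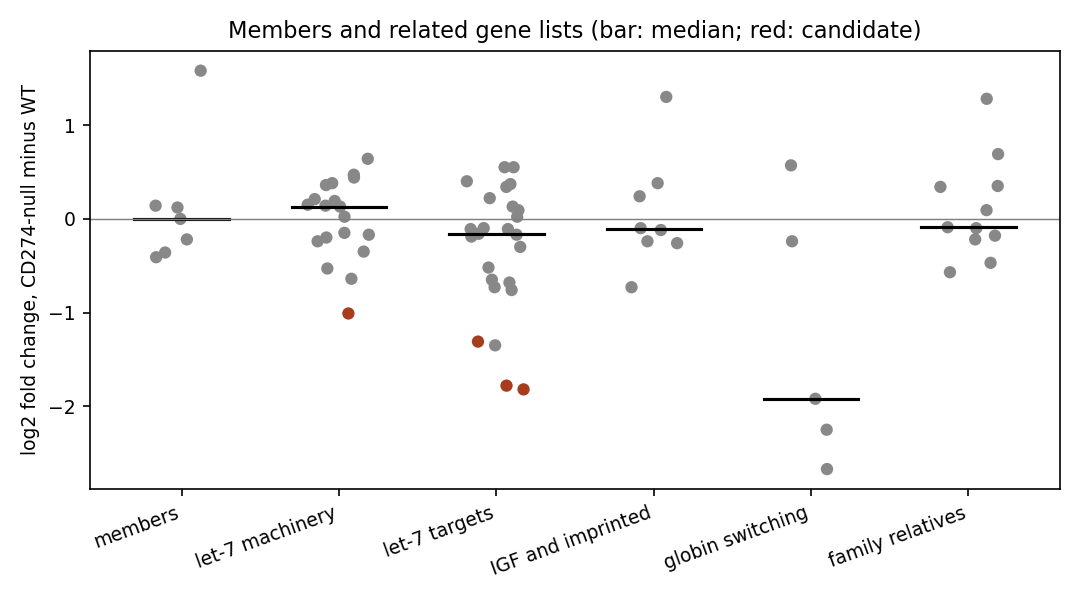
log2 fold change, CD274-null minus WT on the log2(FPKM + 0.5) scale, of the tested genes of the program and of 5 related lists; each point is a gene, black bars are medians and red points are candidates. The 4 red points, Ago2 among the let-7 machinery and Cdk6, Ccnd1 and Ccnd2 among the let-7 targets, all lie below 0, and the 7 tested members of the program lie around 0 except Lin28b.

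Further lists gave no candidate, beside 3.63% of all tested genes. Of 21 imprinted and insulin-like growth factor genes, 8 were tested, with 0 candidates and a median of -0.11. Gnas was the most abundant, at 77.3, 87.8, 87.8 and 131. Peg3 and Ndn were listed at 0 throughout, and Igf1r, the receptor of both insulin-like growth factors, was at 25.6 and 23.0 against 13.1 and 16.0 without being a candidate. Of 12 globin and globin-switching genes, 11 were in the table and 5 were tested, with 0 candidates. The embryonic globins Hbb-y, Hbb-bh1 and Hba-x were listed at 0 in all 4 libraries. The median of -1.92 came from the adult globins of 1 library: Hbb-bs was at 0.947 and 26.9 under the WT label and 3.01 and 0 under the CD274-null label, and the summed erythroid markers were 55.8 in WT replicate 2 against 0.701 to 5.41 elsewhere. Myb, a repressor of fetal globin and the most abundant gene of this list, had 192 and 277 against 318 and 368 and was not a candidate. Of 14 relatives of the members, such as cold-shock and HMG-box proteins, 11 were tested, with 0 candidates and a median of -0.09. Ybx1, a cold-shock protein like the LIN28 pair, had the highest level, at 210.2, 221, 209 and 172.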

How the data were processed

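RNA of 4 LIC libraries, 2 labelled WT and 2 labelled CD274-null, was sequenced (TruSeq RNA v2, HiSeq2500), and what the authors deposited is an FPKM table with 1 value for each gene in each library. Per the submitters' processing notes, CASAVA 1.8.2 and TopHat2 2.0.12 were used with GRCm38; the counting program, gene lengths and strand setting are not given in the sources used here. Columns were matched to samples by title, and 0 were left unassigned. RefSeq GRCm38.p6 gave symbols for 25275 of 27179 genes. Whole reads were recovered from the ratios of FPKM values (relative tolerance 1e-05) for 98.5% of the 17083 genes above 0 in at least 2 libraries, and 249 further genes had reads estimated from transcript length. Genes whose mean FPKM reached 0.5 were compared on log2(FPKM + 0.5) with limma 3.58.1 in R 4.3.3 (SE, standard error; eBayes with trend, no covariates, Benjamini-Hochberg over 13230 genes). Candidates had p under 0.01 and a fold change above 1.5. On simulated reads for 13048 genes, 94.8% of 194 changed genes were called, 0.692% of the others, and 0 with the wrong sign. How often differences as small as those of most members would be called was not tested. Alternatives were pseudocounts of 0.1 and 1, other filters (none, or a mean of at least 5), quantile or equal-median scaling, no trend, voom on recovered reads, GC correction (loess, span 0.3), the replicate block, and leaving out each library. Named are all members; listed genes that were candidates, most abundant or at 0; the 3 most similar genes; and further listed genes named for their role after their values were seen. A listed marker gene is not reported here and was left out of its list. The members and lists were chosen with earlier results of these data known. Sequences were read in Python 3.11.15 from RefSeq and GENCODE M21. Floors and read numbers cover counting error only.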

Additional observations from a re-analysis of the deposited data

How the results depend on the processing

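With 2 libraries a group, 1 library could decide a value. No member was a candidate in any of the 11 settings that kept all libraries. Leaving out each library in turn gave 0 to 1 candidate among the members (Lin28b, without CD274-null replicate 1), 147 (without CD274-null replicate 2) to 634 among all genes tested against 480 with all libraries, with 235 without CD274-null replicate 1, and 0 (without CD274-null replicate 2) to 6 in the pathway lists against 4, with 2 without WT replicate 2. All genes tested gave 283 with GC correction and the replicate block, and the pathway lists gave 2 without a filter, where Ago2 and Ccnd1 kept -1.01 and -1.78 but not the p threshold; the cause was not tested. Ccnd1 (-1.83) also lost its call with GC correction and the replicate block. The lists also gave 2 at a mean FPKM of at least 5, a filter that removes Ccnd1 and Ccnd2. Several log2 fold changes near 0 turned sign. Arid3a went to -0.026 with GC correction and to -0.026 with GC correction and the replicate block, Hmga1 to 0.0035 with voom (and to -0.28, without turning sign, with GC correction), Igf2bp2 to -0.046 with quantile normalization and Cd274 to -0.0026 with quantile normalization. Leaving out 1 library gave ranges of -0.20 to 0.44 for Arid3a, -0.18 to 0.18 for Hmga1, -0.12 to 0.39 for Igf2bp2, -0.53 to 0.087 for Lin28a, -0.76 to -0.051 for Igf2bp3, -0.41 to 3.58 for Lin28b and -0.51 to 0.68 for Cd274. Hmga2 and Igf2bp3 kept a negative value in every setting. With all libraries, Lin28b lay between 1.31 (pseudocount 1) and 2.96 (voom). Ago2 was no longer a candidate in 3 of 11 settings with all libraries and in all 4 that left out a library, with values of -1.17 to -0.85. With the replicate block alone, 526 genes and 0 members were candidates. Same-numbered libraries showed a correlation of deviations of -0.015, which with 4 libraries cannot decide whether they shared a batch. The sample labels give no pairing beyond the number, so the paired result was not used further. The median log2 fold change of all tested genes was 0.01. GC content was known for 86.4% of tested genes.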

Other observations

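All tested genes with an annotated 3′ UTR were also grouped by their number of let-7 seed matches (CTACCTC), a grouping made after the values were seen and given as a description. The 9975 genes without a match had a median of 0.016 for the log2 fold change, and 2.96% were candidates. The 1020 genes with 1 match had a median of -0.027 and 2.65% candidates, and the 161 genes with 2 or more matches had a median of -0.075 and 5.59% candidates. Relative to each gene's mean over the 4 libraries, the median log2 level in CD274-null replicate 2 was -0.062, -0.094 and -0.187 for the 3 classes, and in CD274-null replicate 1 it was 0.078, 0.067 and 0.069. It was -0.038, -0.043 and 0.025 in WT replicate 1 and 0.030, 0.051 and 0.098 in WT replicate 2. The classes thus differed most in CD274-null replicate 2, where genes with more matches were lower, and least in CD274-null replicate 1. Any link to the high Lin28b value of CD274-null replicate 2, a single library, was not tested. Whether length of the 3′ UTR, GC content or other features of these genes move with the number of matches was not tested.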
